A study of Mus musculus with 55 samples.

Results

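The perilipins and the other lipid droplet proteins described here are 10 genes: Plin1, Plin2, Plin3, Plin4, Plin5, Cidec, Fitm1, Fitm2, Bscl2 and Adig. They were chosen by name, with earlier results of these data known, from the 31933 genes in the count tables. All 10 were found by matching Ensembl IDs to mouse gene symbols. The study measured RNA of fat cut out by laser from 3 depots, the interscapular brown depot (iBAT), the gonadal white depot (goWAT) and the subcutaneous white depot (scWAT), of male C57BL/6NRj mice, an inbred black strain, aged 10 weeks. Mice drank corticosterone (GC), which is their chief glucocorticoid hormone, or placebo (Ctrl) for 4 weeks, and were housed cold at 13 °C (CT) or at room temperature of 22 °C (RT). Given in drinking water, corticosterone acted on the whole animal and not on fat alone. Of iBAT there were 5 GC_CT, 5 GC_RT, 5 Ctrl_CT and 3 Ctrl_RT libraries. Of goWAT there were 5 GC_CT, 5 GC_RT, 5 Ctrl_CT and 4 Ctrl_RT libraries, and of scWAT 4, 5, 5 and 4 in the same order.

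Fat cells store triglyceride in droplets that bud from the endoplasmic reticulum, where FITM proteins and seipin, the product of Bscl2, help to shape them. Perilipins coat the droplet surface and control the access of lipases, and Cidec, known in mice as Fsp27, lets droplets exchange lipid and grow. White adipocytes hold a single large droplet, while brown adipocytes hold many small ones beside their mitochondria, and many of these genes are known targets of PPAR transcription factors.

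On GRCm38, Plin4 (chr17:56100591-56109803), Plin5 (chr17:56111601-56117596) and Plin3 (chr17:56277476-56292873) lie on the minus strand of chromosome 17. Plin4 and Plin5 are 1797 bases apart, and Plin5 and Plin3 are 159879 bases apart. Plin1 lies at chr7:79720218-79732903 (minus), Plin2 at chr4:86648386-86670060 (minus), Cidec at chr6:113424634-113435760 (minus), Fitm1 at chr14:55575617-55576954 (plus), Fitm2 at chr2:163466379-163472629 (minus), Bscl2 at chr19:8837467-8848683 (plus) and Adig at chr2:158502612-158508198 (plus). All are protein-coding genes. The libraries mark no strand, so reads in shared exon bases cannot be assigned: 239 bases of Bscl2 are shared with AC129217.1 and 398 with Gng3 on the other strand, 227 of Fitm2 with the antisense gene 2310001K24Rik, 109 of Fitm1 with Gm15932 and 17 of Plin4 with Hdgfl2.

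The promoters of the 4 members on which most results turn are shown 5′ to 3′ on the strand of the gene, from 250 bases before to 50 after the start (RefSeq, GRCm38.p6). Capitals mark matches to AGGTCA, the core site of nuclear receptors, on either strand. They are from chr7:79732727-79733026 (minus, Plin1), chr4:86670010-86670309 (minus, Plin2), chr17:56117499-56117798 (minus, the first of the Plin5 starts) and chr2:158502362-158502661 (plus, Adig).
Plin1: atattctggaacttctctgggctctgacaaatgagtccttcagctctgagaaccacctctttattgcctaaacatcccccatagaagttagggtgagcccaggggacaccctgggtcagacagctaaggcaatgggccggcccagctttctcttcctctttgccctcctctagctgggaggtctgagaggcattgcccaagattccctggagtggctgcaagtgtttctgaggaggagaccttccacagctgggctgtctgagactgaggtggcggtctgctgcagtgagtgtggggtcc
Plin2: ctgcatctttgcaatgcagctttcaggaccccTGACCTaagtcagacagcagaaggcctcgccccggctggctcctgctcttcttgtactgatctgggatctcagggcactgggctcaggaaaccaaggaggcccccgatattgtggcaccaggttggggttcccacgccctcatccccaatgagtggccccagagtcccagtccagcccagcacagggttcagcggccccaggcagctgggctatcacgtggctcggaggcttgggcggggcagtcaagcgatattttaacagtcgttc
Plin5: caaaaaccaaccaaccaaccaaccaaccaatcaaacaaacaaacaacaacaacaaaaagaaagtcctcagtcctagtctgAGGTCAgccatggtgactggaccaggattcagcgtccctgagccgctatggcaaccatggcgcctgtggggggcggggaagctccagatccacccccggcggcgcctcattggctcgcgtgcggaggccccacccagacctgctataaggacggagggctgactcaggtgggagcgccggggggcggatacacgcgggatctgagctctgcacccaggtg
Adig: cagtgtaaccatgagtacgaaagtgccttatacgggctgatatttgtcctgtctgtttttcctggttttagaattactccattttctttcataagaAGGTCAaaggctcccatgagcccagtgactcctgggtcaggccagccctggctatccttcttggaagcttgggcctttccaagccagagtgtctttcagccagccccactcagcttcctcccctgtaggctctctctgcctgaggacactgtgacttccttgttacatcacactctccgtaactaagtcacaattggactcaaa
The core site stood 218 bases before the start in Plin2 (as TGACCT), 170 before the first start of Plin5 and 154 before that of Adig, and the printed Plin1 window held no match. Over the 14 starts of the 10 members, it also stood 13 bases after the other start of Plin5 and 202 before a start of Bscl2. Of 32851 RefSeq mouse promoters of this length, 16.3% held AGGTCA. The direct repeat of AGGTCA with 1 base between the copies, known as DR1, and the glucocorticoid receptor palindrome, GNACA and TGTNC with 3 bases between them, both searched on both strands, were in none of the 14 windows, and in 0.0396% and 0.475% of all promoters. These matches describe letters only, and nothing about binding follows from them.

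An iBAT library held 14043773 to 35790654 counts, a goWAT library 12310822 to 53121372 and an scWAT library 8622178 to 56450653, and the 10 members took 0.292% to 1.02% of them. The labels do not tie libraries to animals, so p-values measure only the spread between libraries, and in such bulk samples fewer cells of a type and less RNA per cell cannot be told apart. All 10 adipocyte markers were detected in every library. The brown fat gene Ucp1 ran from 1158 to 13256 CPM (counts scaled to a common library total) in iBAT, from 0.0243 to 594 in goWAT and from 2.2 to 1107 in scWAT. Marker levels below are means of log2(CPM + 0.5) over a list. Several libraries stood apart on them. On the adipocyte list these were iBAT Ctrl_RT replicates 1 and 2 (11.09 and 11.19, other iBAT libraries 9.24 to 10.67). Of that list, Adipoq, Fabp4, Lpl, Cfd, Retn and Pck1 peaked within iBAT in these libraries, and Cd36, Slc2a4, Aqp7 and Adrb3 in GC libraries. On brown adipocyte genes they were goWAT GC_RT replicate 1 and GC_CT replicate 1 (5.36 and 6.07, other goWAT libraries at most 2.89). On macrophage genes they were scWAT GC_RT replicates 2 and 3 (9.17 and 8.98, other scWAT libraries at most 6.89). An iBAT library, GC_RT replicate 5, was also high in macrophage genes (7.49, other iBAT libraries at most 4.75). Ctrl_RT replicate 1 of iBAT, at 4.75, was left out with it in the repeat without macrophage-rich libraries. In scWAT, GC_CT replicates 3, 4 and 5 and Ctrl_CT replicate 3 were high in epithelial genes (1.34 to 2.65, other scWAT libraries at most -0.33). The main fits kept all libraries, and alternative fits left out those rich in skeletal muscle genes. In iBAT these were Ctrl_RT replicate 3, Ctrl_CT replicate 4 and GC_CT replicate 4 (4.07 to 5.28). In the other depots they were goWAT GC_RT replicate 2 (3.82) and scWAT GC_RT replicate 2 (6.42), while an scWAT Ctrl_RT library at 4.56 was kept. Calls of members that end or appear without such libraries are given with the results they touch.

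Levels are compared between genes and depots as CPM per kilobase of exon on 1 scale over the 3 depots. In Ctrl_RT, Cidec had the highest mean level of the 10 in every depot, and Fitm1 the lowest. In iBAT Ctrl_RT, Cidec averaged 1001 ± 441 and Adig 886 ± 53.6 CPM per kilobase (SD, n = 3), followed by Plin2 (352 ± 51.6), Plin5 (189 ± 200.1), Plin1 (78.1 ± 19.3), Bscl2 (75.6 ± 10.5), Plin4 (68.1 ± 30.3), Fitm2 (54.6 ± 7.01) and Plin3 (24.4 ± 9.22). The ranges of mean ± 1 SD of Cidec and Adig overlapped, as did those of all neighbours from Plin2 down to Fitm2.

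In the white depots the order below Cidec and Adig differed. In goWAT Ctrl_RT (n = 4), Cidec averaged 2172 ± 546 and Adig 455 ± 70.3 CPM per kilobase, followed by Plin1 (189 ± 48.1), Plin4 (137 ± 25.9), Plin2 (102 ± 15.1), Fitm2 (92.0 ± 17.8), Bscl2 (68.9 ± 9.52), Plin3 (15.3 ± 1.89) and Plin5 (10.1 ± 1.02). In scWAT Ctrl_RT (n = 4), Cidec averaged 1493 ± 123 and Adig 692 ± 101 CPM per kilobase, followed by Plin2 (245 ± 87.9), Plin4 (119.7 ± 19.8), Plin1 (88.8 ± 15.6), Bscl2 (69.4 ± 3.66), Fitm2 (55.1 ± 11.5), Plin5 (23.9 ± 15.7) and Plin3 (14.5 ± 0.690). In goWAT the ranges of mean ± 1 SD of neighbours from Plin1 down to Bscl2 overlapped, and in scWAT those of Plin4 and Plin1, of Bscl2 and Fitm2, and of Plin5 and Plin3 did. Fitm1, the FITM gene of skeletal muscle, averaged 0.777 ± 0.969, 0.284 ± 0.239 and 0.181 ± 0.126 CPM per kilobase in these 3 groups.

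**Figure D1:**
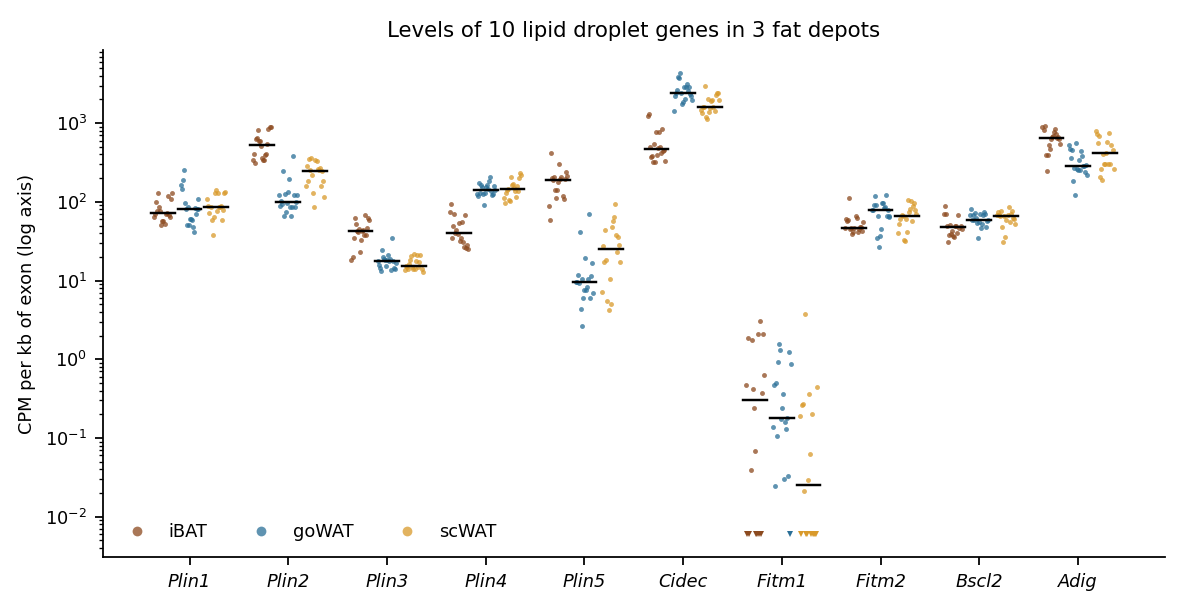
Level of each of the 10 genes in every library, as CPM per kilobase of exon on a log axis, for iBAT, goWAT and scWAT, with a line at the median of the depot and triangles at the lower edge for libraries at 0. Cidec and Adig lie at the top in goWAT and scWAT, Plin5 lies near 191 CPM per kilobase in iBAT but near 9.57 in goWAT and 25.0 in scWAT, and Fitm1 stays below 4.

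Of the members called between depots in placebo mice at 22 °C, the one with the largest fold changes was Plin5, the perilipin of oxidative tissues that ties droplets to mitochondria. It had 88.9, 57.9 and 419 CPM per kilobase in the iBAT Ctrl_RT libraries, against 9.66, 9.57, 11.6 and 9.43 in goWAT Ctrl_RT and 7.21, 27.1, 17.1 and 44.1 in scWAT Ctrl_RT. Replicate 3 of iBAT was far above the other two, and all 3 iBAT libraries lay above every library of both white depots, as for 13.1% of genes against goWAT and 7.53% against scWAT. In 1 fit over the 55 libraries, Plin5 was higher in iBAT than in goWAT by 4.23 ± 0.73 on the log2 scale (± SE here and for all fold changes; adjusted p = 4.55e-05 by the quasi-likelihood test of edgeR). Against scWAT it was higher by 2.98 ± 0.69 (edgeR adjusted p = 0.00978). That difference was 1.62 (edgeR adjusted p = 0.587) without iBAT Ctrl_RT replicate 3, which had the highest Ucp1 of all libraries and was rich in skeletal muscle genes (4.07). It was also not called without scWAT Ctrl_RT replicate 1 (edgeR adjusted p = 0.0651) or 3 (edgeR adjusted p = 0.0503). The difference from goWAT was called in every repeat that left out 1 library, at 2.86 to 4.65.

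Of the 10 members, 3 were called higher and 3 lower in iBAT than in goWAT, where 14.7% of 22245 genes were called in either direction, 8.35% higher and 6.40% lower. Besides Plin5, Plin2, the droplet coat found in most cells, was higher by 1.79 ± 0.42 (edgeR adjusted p = 0.00188). Adig, which encodes the small membrane protein adipogenin, was higher by 0.96 ± 0.31 (edgeR adjusted p = 0.0299). Plin1, the coat of the large droplet, was lower (-1.27 ± 0.34, edgeR adjusted p = 0.00682), as were the droplet growth gene Cidec (-1.12 ± 0.33, edgeR adjusted p = 0.0173) and Plin4, a coat of small nascent droplets in adipocytes (-1.01 ± 0.31, edgeR adjusted p = 0.0192). The calls of Plin2 and Plin1 were kept in every repeat that left out 1 library. Without iBAT Ctrl_RT replicate 3, the difference was -0.80 for Cidec (edgeR adjusted p = 0.199), -0.70 for Plin4 (edgeR adjusted p = 0.218) and 0.92 for Adig (edgeR adjusted p = 0.114). Without goWAT Ctrl_RT replicate 4 it was -1.0 for Cidec (edgeR adjusted p = 0.0539) and 0.96 for Adig (edgeR adjusted p = 0.0600). Without goWAT Ctrl_RT replicate 3 it was -0.87 for Plin4 and 0.87 for Adig (edgeR adjusted p = 0.0715 and 0.0923), and without iBAT Ctrl_RT replicate 1 it was 0.94 for Adig (edgeR adjusted p = 0.0706). Leaving out both iBAT libraries rich in adipocyte genes leaves 1 iBAT Ctrl_RT library, replicate 3. Its spread is then taken from the other groups, so these values describe that library. Against it, the differences were -2.15 for Cidec, -1.98 for Plin4 and -0.93 for Plin1, and 5.37 for Plin5, 1.58 for Plin2, 1.01 for Adig and 1.18 for Plin3, the cytosolic perilipin, which was called there (edgeR adjusted p = 0.0130) while Plin1 and Adig were not (edgeR adjusted p = 0.248 and 0.123).

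Between iBAT and scWAT, Plin5 was the 1 member called of 10, where 2.81% of all genes were (2.31% higher). With replicate 3 as the 1 iBAT library, 4 were called, among them Plin5 (4.12), Plin3 (1.26, edgeR adjusted p = 0.0113) and Plin4 (-1.79, edgeR adjusted p = 0.0120). Between goWAT and scWAT, 2 of 10 were called, where 4.33% of all genes were (2.03% higher and 2.30% lower). Plin1 was higher in goWAT by 1.09 ± 0.31 (edgeR adjusted p = 0.0310), and Plin2 was lower (-1.26 ± 0.39, edgeR adjusted p = 0.0488). The Plin1 call was lost in 5 of 8 repeats that left out 1 library (0.90 to 1.20), which were goWAT Ctrl_RT replicates 3 and 4 and scWAT Ctrl_RT replicates 2, 3 and 4. The Plin2 call was lost in 7 of 8 (-1.42 to -1.05), in all but that without scWAT Ctrl_RT replicate 3. The pairs of depots share their Ctrl_RT libraries, so these comparisons are not independent.

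What corticosterone did was asked in each depot at each temperature. In scWAT and in iBAT at 22 °C the member called was Adig, and in goWAT it was Plin1. All these were lower with corticosterone, and edgeR called no member higher. In iBAT at 22 °C, DESeq2 and limma with library weights also called Plin2 and Plin3 higher, and Cidec and Bscl2 lower. At that temperature both also called Plin5 lower in scWAT, and limma called Adig lower in goWAT. At 22 °C, edgeR called 1 of 10 members in iBAT (0.664% of 17163 genes) and 1 of 10 in goWAT (5.98% of 20175 genes). It called 1 of 9 in scWAT (6.93% of 19003 genes), where Fitm1 was too low to be tested. In the white depots 1 call among so few genes is no more than those shares can give, and in iBAT the share of all genes called was below 1%. The members' median log2 fold change in iBAT was -0.33, beside 0.01 for all genes. It was 0.14 beside 0.05 in goWAT, and -0.24 beside 0.06 in scWAT.

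At 13 °C, edgeR called 0 of 10 members in iBAT (0.728% of all genes), 0 of 10 in goWAT (1.45%) and 0 of 9 in scWAT (2.59%). At an unadjusted p under 0.05 there were 3, 1 and 2. DESeq2 called 1, 0 and 0 members, and limma with library weights called 1 in each depot. The shares of all genes given here and below are for edgeR calls. None is given for unadjusted p, DESeq2 or limma, so member counts by those rules are not shown to exceed the background. Those that limma called were Plin2 in iBAT (0.98, limma adjusted p = 0.0081), Plin1 in goWAT (0.74, limma adjusted p = 0.0163) and Plin5 in scWAT (-1.22, limma adjusted p = 0.0369).

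Cold housing of placebo mice changed 1 member in goWAT, Plin1, of 10 tested (0.312% of all genes). In iBAT edgeR called 0 of 10 (0.0175%), with 2 at an unadjusted p under 0.05, 0 called by DESeq2 and 5 by limma. In scWAT edgeR called 0 of 9 (0% of all genes), with 2 at an unadjusted p under 0.05, 0 called by DESeq2 and 1, Plin5, by limma. Between the corticosterone groups, GC_CT against GC_RT, 2 of 9 members were called in scWAT (8.18% of all genes), Plin5 and Fitm2. In iBAT (0.00583%) and goWAT (0.0149%) edgeR called 0 of 10 each, with 1 at an unadjusted p under 0.05 in both and 0 by DESeq2 and limma. For the interaction, the corticosterone effect at 13 °C minus that at 22 °C, edgeR called 1 of 10 in goWAT, Plin1 (0.461% of all genes). It called 0 of 10 in iBAT and 0 of 9 in scWAT, where 0% of all genes were called, with 3 and 1 at an unadjusted p under 0.05 and 0 by DESeq2 and limma.

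**Figure D2:**
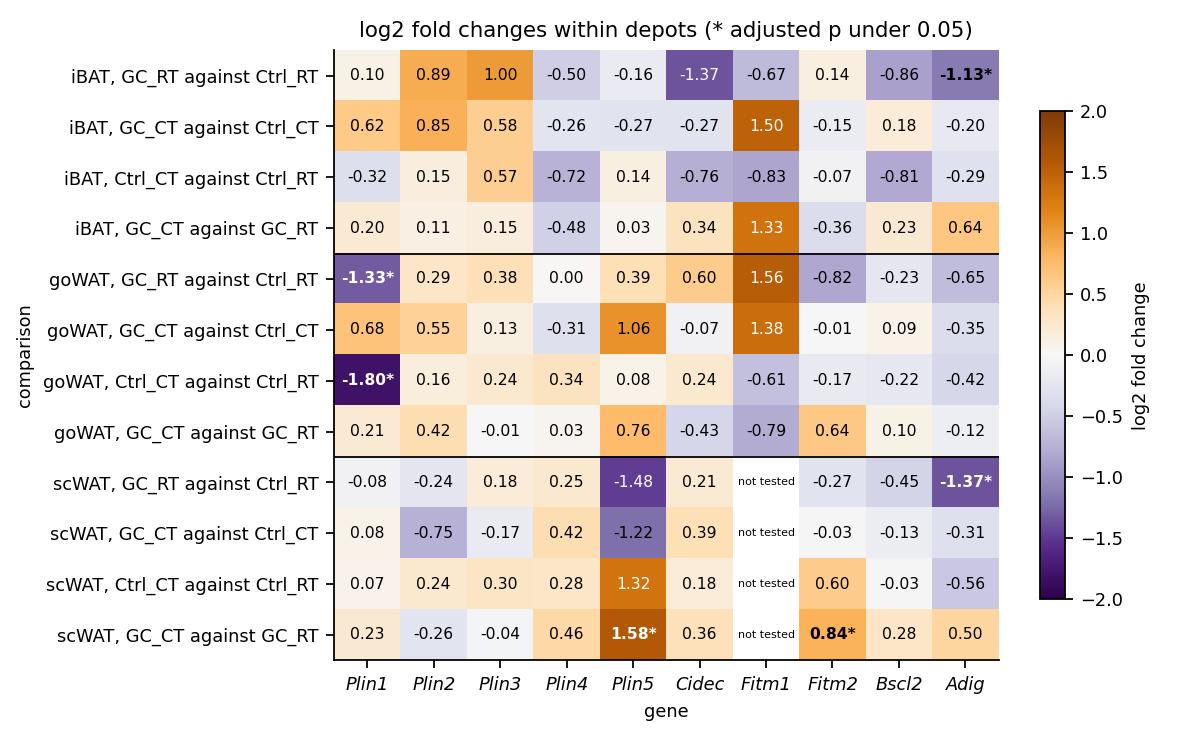
Log2 fold change (colour and number) of each member (columns) in the 12 comparisons between groups within a depot (rows), with a star where the Benjamini-Hochberg adjusted p of edgeR was under 0.05. The 6 starred cells are Adig in iBAT (-1.13) and scWAT (-1.37) at 22 °C, Plin1 in goWAT with corticosterone at 22 °C (-1.33) and with cold in placebo mice (-1.80), and Plin5 (1.58) and Fitm2 (0.84) in scWAT GC_CT against GC_RT.

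Plin1, which guards the large droplet and releases the lipase activator Abhd5 upon phosphorylation, differed between the goWAT groups. It had 426, 359, 435, 561 and 419 CPM in the GC_CT libraries and 491, 421, 261, 468 and 262 CPM in GC_RT. In Ctrl_CT it had 309.7, 302, 302, 247 and 213 CPM, and in Ctrl_RT 805, 750.1, 964 and 1301 CPM. The 4 Ctrl_RT libraries all lay above the other 15 (2.06% of genes were so separated in Ctrl_CT against Ctrl_RT and 4.39% in GC_RT against Ctrl_RT), and every GC_CT library lay above every Ctrl_CT library.

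The means were 439.8 ± 74.1 CPM in GC_CT, 381 ± 112 in GC_RT, 275 ± 42.8 in Ctrl_CT (SD, n = 5 each) and 955 ± 248 in Ctrl_RT (n = 4). Plin1 was lower in Ctrl_CT than in Ctrl_RT (-1.80 ± 0.24, edgeR adjusted p = 0.0006), where 0.292% of genes were called lower. It was lower in GC_RT than in Ctrl_RT (-1.33 ± 0.24, edgeR adjusted p = 0.00193), where 2.85% of genes were called lower. At 13 °C its fold change with corticosterone was 0.68 ± 0.23 (edgeR adjusted p = 0.132), which did not pass, although the groups did not overlap, as for 2.28% of genes on the higher side. The interaction was 2.01 ± 0.33 (edgeR adjusted p = 0.00521), with 0.327% of genes called on that side. The 3 called comparisons share the 4 Ctrl_RT libraries and are not independent. They were called in every repeat that left out 1 library (-1.90 to -1.61 with cold, -1.44 to -1.15 with corticosterone, 1.83 to 2.12 for the interaction). The interaction was 1.91 (edgeR adjusted p = 0.0667) without the 3 goWAT libraries that held epididymis transcripts, GC_RT replicate 5 and Ctrl_CT replicates 1 and 4.

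The adipocyte marker list of goWAT had means of 11.27 to 11.47 in GC_CT, 10.86 to 12.06 in GC_RT, 11.22 to 11.60 in Ctrl_CT and 11.53 to 11.83 in Ctrl_RT, so Ctrl_RT was above GC_CT throughout but overlapped GC_RT and Ctrl_CT. Base composition of transcripts also moved with these comparisons. The longest Plin1 transcript is 56.9% G + C, in the ninth of 10 equal classes of genes. Genes of that class had a median log2 fold change of -0.07 in goWAT Ctrl_CT against Ctrl_RT, where the class richest in G + C had -0.21 and the poorest 0.12, and 20 of the 59 genes called lower were in the richest class. In GC_RT against Ctrl_RT the class of Plin1 had a median of 0.06, and in the interaction 0.12. The part of the marker list and of base composition in the Plin1 result was not tested.

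The genes most like Plin1 were Scand1, Rnf187 and Mgat4b, with Pearson correlations of log2 CPM of 0.82, 0.82 and 0.78 over the 55 libraries after each depot's mean was removed, a description over libraries that share depth and depot, among 8627 genes. In goWAT, Rnf187, a ubiquitin ligase gene, averaged 168 ± 27.4 CPM in GC_CT, 107 ± 32.5 in GC_RT, 85.3 ± 13.2 in Ctrl_CT and 418 ± 110 in Ctrl_RT. Scand1 averaged 40.5 ± 15.7, 39.5 ± 19.1, 23.6 ± 7.18 and 149 ± 57.8 CPM in the same groups. Mgat4b, a glycosyltransferase gene, averaged 45.1 ± 13.0, 27.4 ± 7.17, 28.2 ± 6.94 and 92.1 ± 39.04 CPM. All 3 were highest in Ctrl_RT, while Scand1 and Rnf187 were lowest in Ctrl_CT, as Plin1 was, and Mgat4b was about equally low in GC_RT and Ctrl_CT. The longest transcripts of Rnf187 and Scand1 are 61.1% and 68.4% G + C.

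Plin1 did not differ by the test in the other depots. In iBAT it had 455, 256, 244, 397 and 472 CPM in GC_CT, 289, 489.8, 323, 285 and 196 in GC_RT, 217, 216, 201, 275 and 277 in Ctrl_CT, and 244, 266 and 378 in Ctrl_RT. In scWAT it ran from 298 to 699 CPM in GC_CT, from 189.8 to 712 in GC_RT, from 383 to 685 in Ctrl_CT and from 378 to 568 in Ctrl_RT. The groups of both depots overlapped throughout. A test of whether the corticosterone effect at 22 °C differed between the 3 depots gave an adjusted p of 0.0750 for Plin1 by edgeR.

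**Figure D3:**
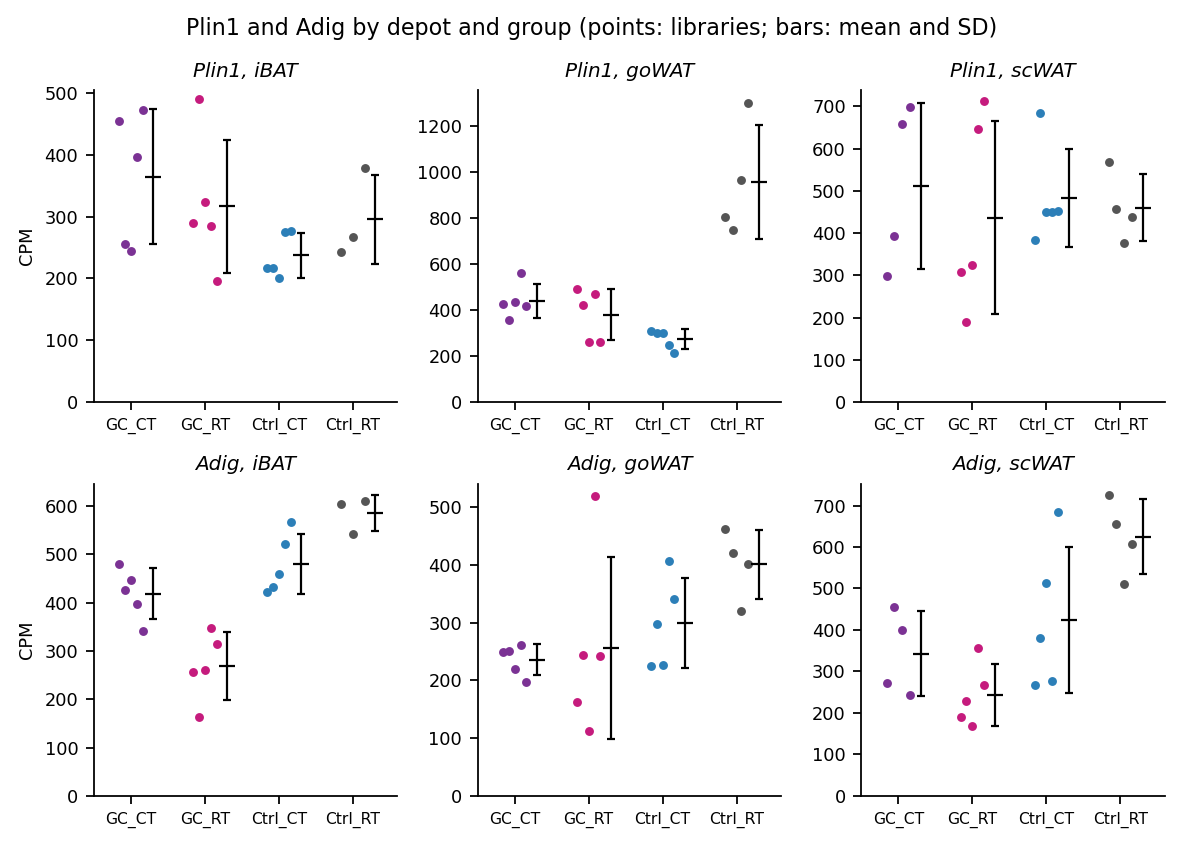
Plin1 (upper row) and Adig (lower row) in CPM on the TMM scale of each depot, per library (points) with the mean and SD of each group, for iBAT, goWAT and scWAT. The 4 goWAT Ctrl_RT libraries of Plin1 sit at 750.1 to 1301 CPM, above the other 15, and Adig in GC_RT sits below Ctrl_RT without overlap in iBAT and scWAT.

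Adig rises during adipocyte differentiation, and its protein lies in membranes of fat cells. In scWAT it had 272, 456, 400.3 and 243 CPM in GC_CT and 189, 229, 169, 357 and 267 CPM in GC_RT. In Ctrl_CT it had 266, 380.3, 513, 277 and 684 CPM, and in Ctrl_RT 725, 656, 509.8 and 607 CPM. All 5 GC_RT libraries lay below all 4 Ctrl_RT libraries, as for 4.43% of genes, while the groups at 13 °C overlapped. The difference at 22 °C was -1.37 ± 0.29 (edgeR adjusted p = 0.00622), where 3.45% of genes were called lower. It was called in every repeat that left out 1 library (-1.55 to -1.22). Without both macrophage-rich libraries, GC_RT replicates 2 and 3, which held 229 and 169 CPM of Adig, it was -1.20 (edgeR adjusted p = 0.0599). The adipocyte list was also lower in GC_RT (10.23 to 11.36) than in Ctrl_RT (11.51 to 11.76) of scWAT, without overlap, as was the brown adipocyte list (1.97 to 2.68 against 3.66 to 6.35). Over the 18 scWAT libraries, Adig had Pearson correlations of 0.58 and 0.62 with the means of these lists, as a description. Their part in the Adig result was not tested.

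In iBAT Adig had 481, 426, 446, 396 and 342 CPM in GC_CT and 256, 162, 259.6, 348 and 314 CPM in GC_RT. In Ctrl_CT it had 422, 433, 459, 521 and 568 CPM, and in Ctrl_RT 604, 542 and 611 CPM. GC_RT was again below Ctrl_RT in every library, and the 3 Ctrl_RT libraries lay close together. The difference was -1.13 ± 0.24 (edgeR adjusted p = 0.0229), where 0.332% of genes were called lower. It lost the call without Ctrl_RT replicate 1 (edgeR adjusted p = 0.117), Ctrl_RT replicate 2 (0.0694) or GC_RT replicate 1 (0.0707), and with only these groups in the fit (0.158), while the fold change stayed between -1.24 and -1.01 in all alternatives. The fold change was -1.18 without Ctrl_RT replicates 1 and 2 together, the libraries rich in adipocyte genes. That value rests on 1 Ctrl_RT library with the spread of the other groups. The adipocyte list ran from 9.28 to 10.23 in GC_RT and from 9.57 to 11.19 in Ctrl_RT of iBAT, which overlapped. The fold change of Adig was -1.08 (edgeR adjusted p = 0.0644) without the libraries rich in skeletal muscle genes, which include Ctrl_RT replicate 3. It was -1.18 (edgeR adjusted p = 0.153) without GC_RT replicate 5 and Ctrl_RT replicate 1, left out together as macrophage-rich. Leaving out Ctrl_RT replicate 1 alone also ended the call, so this repeat does not single out the macrophage-rich GC_RT library.

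In goWAT Adig had 248, 252, 220.02, 261 and 197 CPM in GC_CT, 162, 243, 112, 519.6 and 241 in GC_RT, 224, 298, 226, 408 and 341 in Ctrl_CT, and 461, 421, 319.8 and 401 in Ctrl_RT. GC_RT replicate 4 was the highest of all 19 goWAT libraries, and the other 4 GC_RT libraries lay below every Ctrl_RT library. The fold change at 22 °C was -0.65 ± 0.31 (edgeR adjusted p = 0.219), and -1.08 (edgeR adjusted p = 0.0139) without GC_RT replicate 4 alone. It was -1.24 (edgeR adjusted p = 0.0133) without GC_RT replicates 2 and 4, the goWAT libraries with the fewest counts (12310822 and 18290612). With limma and library weights it was -0.95 (limma adjusted p = 0.0307). At 13 °C the fold changes of Adig with corticosterone were -0.20 ± 0.21 in iBAT, -0.35 ± 0.29 in goWAT and -0.31 ± 0.29 in scWAT, and none passed. For iBAT the interaction was 0.93 ± 0.32, for goWAT 0.30 ± 0.43 and for scWAT 1.06 ± 0.41 (edgeR adjusted p = 0.765, 0.779 and 0.416). Thus the sizes at the 2 temperatures were not shown to differ.

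Plin5 varied widely among libraries of the white depots. In scWAT it had 52.6, 80.1, 64.8 and 41.2 CPM in GC_CT and 42.7, 12.4, 9.58, 23.6 and 11.6 CPM in GC_RT. In Ctrl_CT it had 107, 133, 148, 217 and 87.0 CPM, and in Ctrl_RT 16.7, 63.3, 40.1 and 102 CPM. Every Ctrl_CT library lay above every GC_CT library, and GC_CT overlapped GC_RT by 1 library, GC_RT replicate 1. Plin5 rose in GC_CT against GC_RT by 1.58 ± 0.45 (edgeR adjusted p = 0.0376), where 3.02% of genes were called higher. With corticosterone its fold change was -1.48 ± 0.45 at 22 °C (edgeR adjusted p = 0.0528) and -1.22 ± 0.46 at 13 °C (edgeR adjusted p = 0.183), and with cold in placebo mice it was 1.32 ± 0.46 (edgeR adjusted p = 0.292). DESeq2 called the first of these 3 (-1.47, DESeq2 adjusted p = 0.0122), and limma called all 3.

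Markers of other cells moved with Plin5 in scWAT. Over its 18 libraries, log2 CPM of Plin5 had a Pearson correlation of 0.82 with the mean of the brown adipocyte list and of -0.82 with that of the macrophage list, a description over libraries of 4 groups. The brown list ran from 2.68 to 4.32 in GC_CT, 1.97 to 2.68 in GC_RT, 5.12 to 7.04 in Ctrl_CT and 3.66 to 6.35 in Ctrl_RT. The macrophage list ran from 4.54 to 4.84, 5.39 to 9.17, 4.09 to 5.60 and 4.96 to 6.75 in the same groups. Between GC_CT and GC_RT the adipocyte list (11.49 to 12.14 against 10.23 to 11.36) and the progenitor and fibroblast list (5.80 to 6.18 against 6.38 to 7.22) did not overlap either. The epithelial list was at 1.34 to 2.65 in 3 of 4 GC_CT libraries and at most -0.54 in GC_RT. Leaving out the epithelium-rich libraries leaves GC_CT replicate 1 alone, with the spread of the other groups, where the fold changes were 1.43 for Plin5 and 0.97 for Fitm2 (edgeR adjusted p = 0.706 and 0.705). Without GC_RT replicates 2 and 3 the change of Plin5 between GC_CT and GC_RT was 1.24 (edgeR adjusted p = 0.207). The call was also lost without GC_RT replicate 2, 3 or 5 or without GC_CT replicate 1, 3 or 4 alone, at 1.41 to 2.07 over all 18 such repeats. The part of these cell types in the result was not tested.

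**Figure D4:**
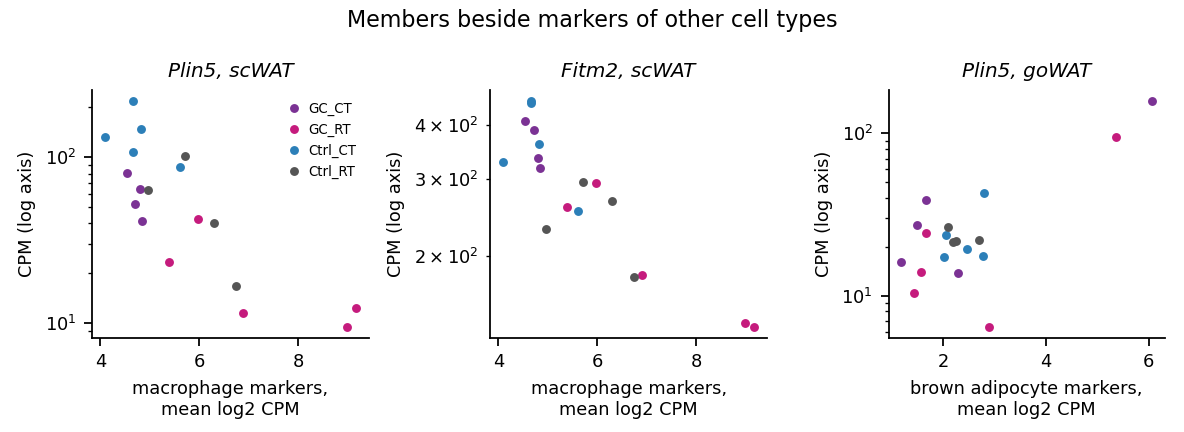
Plin5 and Fitm2 in scWAT against the macrophage markers, and Plin5 in goWAT against the brown adipocyte markers, with 1 point per library, member CPM on a log axis and markers as mean log2(CPM + 0.5). The 2 scWAT GC_RT libraries at 9.17 and 8.98 have the lowest Fitm2 and low Plin5, and the 2 goWAT libraries at 5.36 and 6.07 have the highest Plin5.

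In goWAT Plin5 was low in nearly every library, with 157, 13.7, 27.3, 38.9 and 16.2 CPM in GC_CT, 94.8, 10.4, 24.2, 6.46 and 14.0 in GC_RT, 17.5, 43.2, 17.3, 19.4 and 23.8 in Ctrl_CT, and 21.6, 21.9, 26.4 and 21.6 in Ctrl_RT. The 2 highest values belong to the libraries that stood apart on brown adipocyte genes, and the groups overlapped. In iBAT it had 207, 187, 328, 395 and 346 CPM in GC_CT, 334, 319, 344, 241 and 193 in GC_RT, 244, 302, 516, 339.6 and 363 in Ctrl_CT, and 153, 98.1 and 711 in Ctrl_RT. There the 2 Ctrl_RT libraries rich in adipocyte genes were the lowest of 18 and the third was the highest. Most like Plin5 over the 55 libraries were Ndufv1 (0.91), a subunit of mitochondrial complex I, Otop1 (0.89), a proton channel, and Atp5a1 (0.88), a subunit of ATP synthase.

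By its median over all libraries of a depot, Plin2 was highest in iBAT, at 524 CPM per kilobase against 249 in scWAT and 100 in goWAT. In Ctrl_RT it was not called between iBAT and scWAT. In iBAT Plin2 had 1163, 1554, 2424, 2479.5 and 2465 CPM in GC_CT and 1768, 1819, 2297, 1698 and 1751 in GC_RT. In Ctrl_CT it had 1455, 1035, 968, 985 and 1156 CPM, and in Ctrl_RT 983, 1163 and 877 CPM. At 22 °C all GC_RT libraries lay above all Ctrl_RT libraries, and at 13 °C GC_CT replicate 1 lay among the Ctrl_CT libraries. The fold change was 0.89 ± 0.28 at 22 °C (edgeR adjusted p = 0.179) and 0.85 ± 0.24 at 13 °C (edgeR adjusted p = 0.110), and neither passed. DESeq2 called both (0.87 and 0.84, DESeq2 adjusted p = 0.0359 and 0.0148), as did limma (0.81 and 0.98, limma adjusted p = 0.0238 and 0.0081).

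In the white depots Plin2 passed no test between treatment groups. In scWAT it had 607, 919, 707 and 465 CPM in GC_CT and 1283, 1316, 1030.3, 993 and 1043 CPM in Ctrl_CT, without overlap (-0.75 ± 0.34, edgeR adjusted p = 0.290). In that comparison 3 of 9 members did not overlap, Plin2 and Plin5 on the lower side and Cidec on the higher, as did 4.17% and 4.36% of all genes. In goWAT Plin2 ran from 262 to 938 CPM over all groups except GC_CT replicate 1, a library high in brown adipocyte genes, which had 1475. A test of whether the corticosterone effect at 13 °C differed between depots called 0 of 10 members by edgeR (0.234% of all genes), with Plin2 and Plin5 at an unadjusted p under 0.05, 0 called by DESeq2 and 1 by limma.

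Plin3, a cytosolic protein that moves onto young droplets, had 215, 117, 144, 186 and 174 CPM in iBAT GC_CT and 192, 161, 130.3, 129 and 141 in GC_RT. It had 70.7, 102, 130.2, 138 and 119 CPM in Ctrl_CT and 56.4, 61.7 and 108 in Ctrl_RT. GC_RT lay above Ctrl_RT throughout, by 1.0 ± 0.28 (edgeR adjusted p = 0.113). DESeq2 and limma called the rise (0.97 and 1.26, DESeq2 adjusted p = 0.0353, limma adjusted p = 0.00194). EdgeR called it without the muscle-rich libraries (1.37, edgeR adjusted p = 0.0484) or without Ctrl_RT replicate 3 (1.36, edgeR adjusted p = 0.0312). Both repeats take out Ctrl_RT replicate 3, the highest Ctrl_RT library at 108 CPM, so they are not separate and a larger rise was bound to follow. In this comparison 4 of 10 members did not overlap, Plin2 and Plin3 on the higher side and Bscl2 and Adig on the lower, as did 4.29% and 3.28% of all genes. Plin3 ran from 54.5 to 142 CPM in goWAT and scWAT, and its fold changes between treatment groups there were -0.17 to 0.38. Plin4, the coat of nascent droplets, ran from 612 to 1326 CPM in goWAT and from 622 to 1477 in scWAT. In iBAT it had 128, 319.8, 124, 128 and 115 CPM in GC_CT, 228, 325, 188, 206 and 189 in GC_RT, 254, 148, 163, 264 and 146 in Ctrl_CT and 357, 442 and 164 in Ctrl_RT, with no call between treatment groups in any depot.

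Cidec in iBAT had 634, 1279.8, 665, 655 and 480.4 CPM in GC_CT and 557, 577, 479, 829 and 500.1 in GC_RT. It had 1179, 600.03, 727, 1210.4 and 757 CPM in Ctrl_CT and 1869, 1938 and 744 in Ctrl_RT. The first 2 Ctrl_RT replicates stood above all other iBAT libraries, and the third lay within the GC_RT range. The fold change at 22 °C was -1.37 ± 0.35 (edgeR adjusted p = 0.0705). It was called by DESeq2 (-1.38, DESeq2 adjusted p = 0.00815) and limma (-1.53, limma adjusted p = 0.00337). EdgeR called it without the muscle-rich libraries (-1.68, edgeR adjusted p = 0.0234), and without Ctrl_RT replicate 3 (-1.69, edgeR adjusted p = 0.0144) or GC_CT replicate 2 (-1.39, edgeR adjusted p = 0.0415). The muscle-rich set includes Ctrl_RT replicate 3, so these repeats are not separate. Without it, Ctrl_RT holds only replicates 1 and 2 (1869 and 1938 CPM), so a larger drop was bound to follow. Over the 18 iBAT libraries Cidec had a Pearson correlation of 0.90 with the mean of the adipocyte marker list, and Plin4 of 0.82.

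In goWAT, Cidec had 7666, 7897, 8948, 5189.7 and 3644 CPM in GC_RT and 2801, 4451, 4910.1 and 5426 CPM in Ctrl_RT, which overlapped (0.60 ± 0.28, edgeR adjusted p = 0.211). In scWAT it had 6248, 2364, 2303, 4059 and 2841 CPM in GC_RT and 3032, 2756, 3315 and 3246 CPM in Ctrl_RT, which also overlapped (0.21 ± 0.27, edgeR adjusted p = 0.703). Its corticosterone effect at 22 °C differed between the depots, the 1 member called of 10 where 0.742% of all genes were (edgeR adjusted p = 0.0245). The effect in iBAT minus that in scWAT was -1.58, and that in goWAT minus that in scWAT was 0.34. This call was lost without iBAT Ctrl_RT replicate 1 (edgeR adjusted p = 0.114), Ctrl_RT replicate 2 (0.0975), GC_RT replicate 1 (0.0516) or GC_RT replicate 2 (0.0526), and with Ctrl_RT replicate 3 as the 1 iBAT library of its group it was 0.584, which describes that library.

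**Figure D5:**
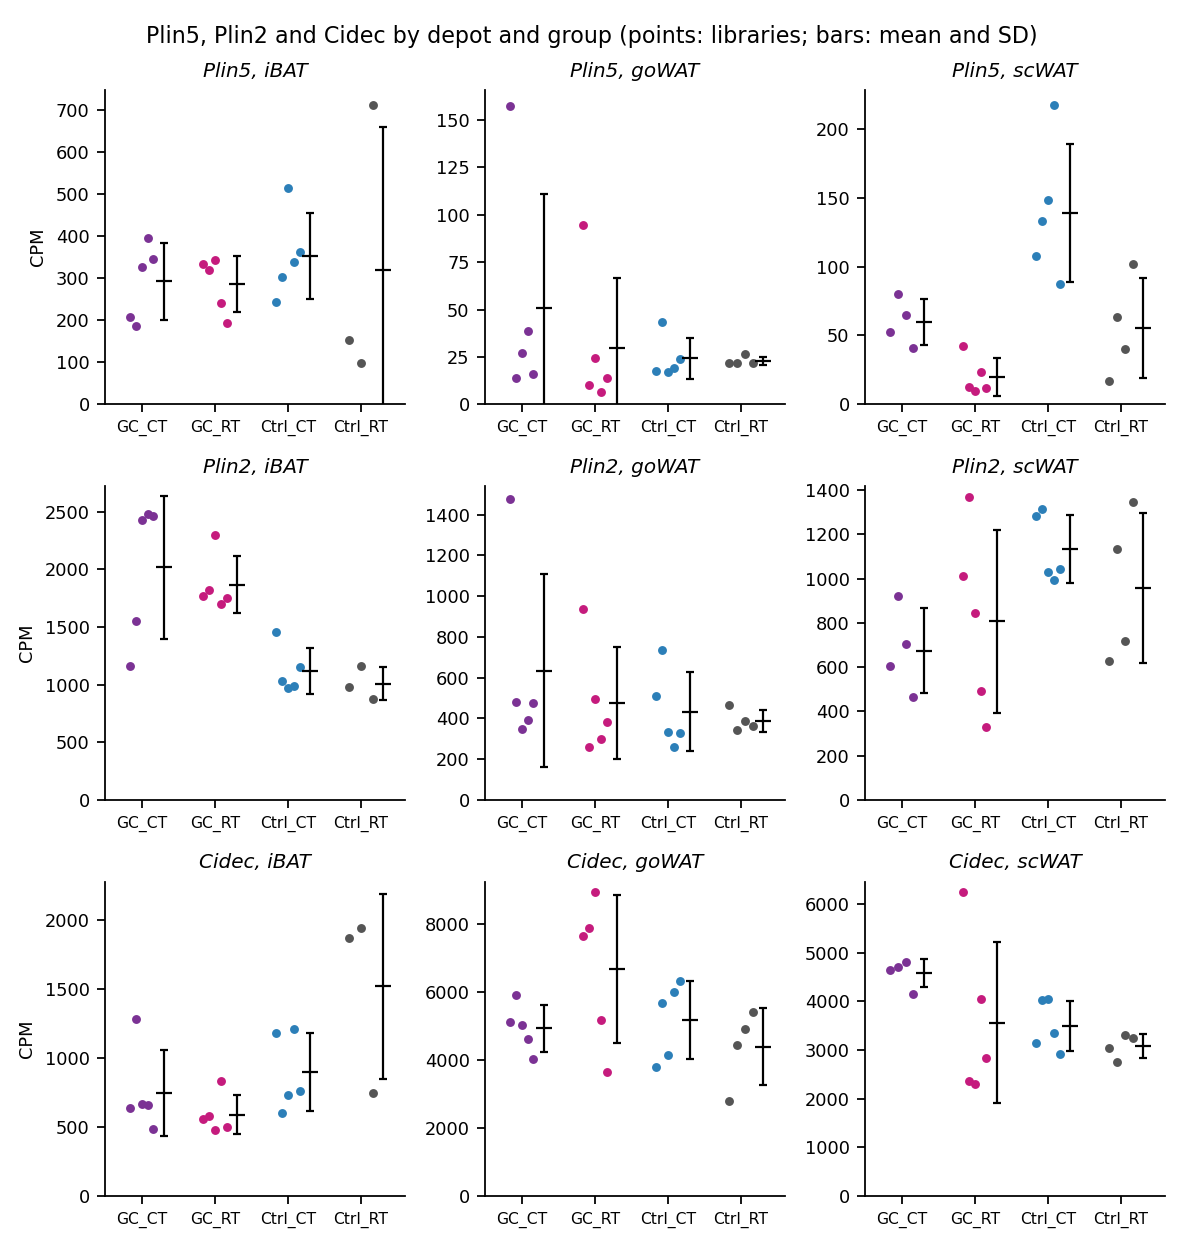
Plin5, Plin2 and Cidec (rows) in CPM on the TMM scale of each depot, per library (points) with the mean and SD of each group (bars end at 0 where the SD exceeds the mean), for iBAT, goWAT and scWAT. Plin5 reaches 157 CPM in 1 goWAT GC_CT library and 711 in 1 iBAT Ctrl_RT library, and Cidec is highest in goWAT.

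Among the genes of droplet formation, Fitm2, an endoplasmic reticulum protein needed for storage droplets in fat, moved in scWAT. It had 389, 408, 336 and 318 CPM in GC_CT and 294, 138, 139.96, 259 and 181 CPM in GC_RT, against 453, 329, 361, 449 and 254 CPM in Ctrl_CT and 179, 231, 268 and 296 CPM in Ctrl_RT. GC_CT lay above GC_RT throughout, as for 3.33% of all genes. Fitm2 rose by 0.84 ± 0.25 in that comparison (edgeR adjusted p = 0.0436). The call was lost in 11 of 18 repeats that left out 1 library (0.73 to 1.01), among them each of GC_RT replicates 2, 3 and 5 and GC_CT replicates 1, 3 and 4. It was lost in 6 of 9 other alternatives, as was that of Plin5. Without both macrophage-rich libraries it was 0.59 (edgeR adjusted p = 0.25), and over the scWAT libraries Fitm2 had a Pearson correlation of -0.89 with the macrophage list. The other lists given for Plin5 in that comparison moved with Fitm2 as well, and their part was not tested.

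In goWAT Fitm2 had 389, 156, 291, 124 and 164 CPM in GC_RT and 337, 347, 398 and 509 CPM in Ctrl_RT. Replicate 1 of GC_RT, high in brown adipocyte genes, lay within the Ctrl_RT range and the other 4 lay below it. The fold change was -0.82 ± 0.31 (edgeR adjusted p = 0.110), and -1.13 (edgeR adjusted p = 0.0127) without GC_RT replicate 1 and GC_CT replicate 1. Fitm2 and Plin5 varied together, with Pearson correlations of 0.85 over the 18 libraries of scWAT and 0.71 over the 19 of goWAT, as a description of libraries that share these markers and their depth.

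Bscl2, the gene of seipin, which is mutated in a human lipodystrophy, had 236, 145, 179, 247 and 194 CPM in iBAT GC_RT and 339, 419.6 and 332 CPM in Ctrl_RT. The groups did not overlap, and the fold change was -0.86 ± 0.24 (edgeR adjusted p = 0.10). DESeq2 and limma called it (-0.88 and -0.80, DESeq2 adjusted p = 0.0152, limma adjusted p = 0.0203). In Ctrl_CT Bscl2 had 208, 177, 169.6, 245 and 239.7 CPM, again below every Ctrl_RT library (-0.81 ± 0.24, edgeR adjusted p = 0.323), as 3.01% of all genes were. Limma called this difference (-0.86, limma adjusted p = 0.0137). These comparisons share the 3 Ctrl_RT libraries. In goWAT and scWAT Bscl2 ran from 230.2 to 530.3 and from 202 to 568 CPM and was not called. Fitm1 ran from 0 to 3.94 CPM, and its highest value, in scWAT GC_RT replicate 2, came from the library with the highest skeletal muscle markers, at a mean of 6.42.

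Of 30 further lipid droplet genes and 10 regulators listed beside the members, 29 and 10 were matched. With corticosterone at 22 °C, 3 of 27 tested droplet genes rose and 3 fell in scWAT, where 6.93% of all genes were called in either direction. Hilpda and G0s2, both inhibitors of the main triglyceride lipase, rose by 2.33 ± 0.46 and 1.81 ± 0.34 (edgeR adjusted p = 0.00355 and 0.00231), and the caveolin gene Cav1 rose by 1.05 ± 0.26 (edgeR adjusted p = 0.0162). Cidea, a relative of Cidec typical of brown fat, changed by -4.04 ± 0.67, Clstn3 by -2.98 ± 0.43 and Dgat1, which makes triglyceride, by -0.94 ± 0.20 (edgeR adjusted p = 0.00114, 0.000222 and 0.00558). In goWAT 3 of 28 rose and 2 fell, where 5.98% of all genes were called in either direction. There G0s2 rose by 1.35 ± 0.34 (edgeR adjusted p = 0.0199), Hilpda by 1.44 ± 0.34 and Cav1 by 0.91 ± 0.27 (edgeR adjusted p = 0.0144 and 0.0474). Dgat1 and the lipase gene Lipe changed by -0.98 ± 0.21 and -0.90 ± 0.27 (edgeR adjusted p = 0.00694 and 0.0455).

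At 13 °C G0s2 rose by 1.89 ± 0.32 in goWAT and 1.49 ± 0.32 in scWAT (edgeR adjusted p = 0.00280 and 0.0134). In scWAT Lpin1 (-1.31 ± 0.31) and Cidea (-2.87 ± 0.68) fell (edgeR adjusted p = 0.0237 and 0.0276). No other droplet gene was called there in either depot, where 1.45% of all genes were called in goWAT and 2.59% in scWAT. In iBAT edgeR called 0 of 28 at 22 °C (0.664% of all genes), with 7 at an unadjusted p under 0.05. The share of all genes at that unadjusted p is not given. At 13 °C (0.728% of all genes) it called Gpat4 alone (-0.99 ± 0.23, edgeR adjusted p = 0.0477). In GC_CT against GC_RT of scWAT, Clstn3 rose by 2.44 ± 0.42 and Hilpda fell by -1.60 ± 0.45 on the log2 scale (edgeR adjusted p = 0.0126 and 0.0334). No other droplet gene was called there. These calls are no more than the share of all genes called, 8.18%, can give. The macrophage and brown adipocyte lists moved with these scWAT groups as given above, and Cidea is in the brown list.

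Of the 10 regulators, which include Pparg, Ppara and the glucocorticoid receptor gene Nr3c1, the lipid synthesis factor Srebf1 fell with corticosterone at 22 °C in goWAT (-1.45 ± 0.30) and scWAT (-1.08 ± 0.28; edgeR adjusted p = 0.00495 and 0.0219). Ppara, which drives fatty acid oxidation, fell in scWAT at 13 °C (-2.20 ± 0.46, edgeR adjusted p = 0.00939). Rxra and Nr1h3 rose in GC_CT against GC_RT of scWAT (0.67 ± 0.18 and 0.76 ± 0.23, edgeR adjusted p = 0.0318 and 0.0488). No other regulator was called in these comparisons, where 5.98%, 6.93%, 2.59% and 8.18% of all genes were, in the order given. In iBAT 0 of 10 regulators were called by edgeR with corticosterone, with 6 at an unadjusted p under 0.05 at 22 °C and 1 at 13 °C. Of all genes, 0.664% and 0.728% were called there, and the shares at an unadjusted p under 0.05 are not given. Between depots in Ctrl_RT, iBAT exceeded goWAT in Ppargc1a by 3.61 ± 0.57 and in Ppara by 3.59 ± 0.62 (edgeR adjusted p = 1.14e-05 and 4.67e-05), both known regulators of mitochondrial genes. It also exceeded goWAT in Cebpb by 3.65 ± 0.66 (edgeR adjusted p = 8.45e-05), and in the droplet genes Cidea by 7.87 ± 1.49 and Cideb by 5.66 ± 1.23 (edgeR adjusted p = 0.000182 and 0.000858). Clstn3 (2.41 ± 0.54) and Acsl3, which activates fatty acids (1.21 ± 0.35), were also higher in iBAT (edgeR adjusted p = 0.00140 and 0.0147). The caveola genes Cavin1 (-1.44 ± 0.33) and Cav1 (-1.21 ± 0.30) and the PPAR partner gene Rxra (-0.81 ± 0.23) were lower in iBAT than in goWAT (edgeR adjusted p = 0.00160, 0.00426 and 0.0102). These were 6 of 29 droplet genes and 4 of 10 regulators, where 14.7% of all genes were called in either direction.

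Between iBAT and scWAT, 3 of 29 droplet genes and 2 of 10 regulators were called, where 2.81% of all genes were. Ppara (3.25 ± 0.62), Ppargc1a (2.13 ± 0.55), Cideb (5.52 ± 1.29) and Gpat4, which makes glycerolipids (1.17 ± 0.32), were higher in iBAT (edgeR adjusted p = 0.00125, 0.0212, 0.00955 and 0.0307), and Cavin1 was lower (-1.25 ± 0.33, edgeR adjusted p = 0.0229). Between goWAT and scWAT, 3 of 29 and 2 of 10 were called, where 4.33% of all genes were. Cav1 was higher in goWAT (0.94 ± 0.28, edgeR adjusted p = 0.0374). Hsd17b11 (-2.36 ± 0.60), Cidea (-4.90 ± 1.28), Cebpb (-2.13 ± 0.60) and Cebpa (-0.96 ± 0.28) were lower (edgeR adjusted p = 0.0168, 0.0212, 0.0317 and 0.0409). Cidea and Ppara are also in the brown adipocyte list.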

How the data were processed

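The deposited values are raw counts per Ensembl gene, 1 table per depot. Per the labels' protocols, areas were laser-captured from cryosections and about 2 ng of RNA entered SMART-Seq2 libraries. FastQC, the aligner GSNAP, the build mm10 and the counter featureCounts (1.6.3) are named in the submitters' processing notes. The gene annotation, the strand setting and how reads with several matches were counted: not given in the sources used here. Groups came from the labels, and all columns were used.

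In R 4.3.3, edgeR 4.0.16 kept genes by filterByExpr (minimum count 10, total 15), scaled by TMM and fitted the robust quasi-likelihood model, 1 fit of 4 groups per depot and 1 of all 55 libraries for comparisons of depots. A call means an adjusted p (Benjamini-Hochberg, over all genes of a comparison) under 0.05. The self-test drew simulated counts with known changes. Alternatives used DESeq2 1.42.0 and limma 3.58.1, other scaling, filters and sample sets. CPM use TMM-adjusted library sizes, and lengths are GENCODE exon bases on GRCm38. The text names the 10 members, called genes of the droplet list (at most 6 per comparison) and of the regulator list, and the 3 genes most alike to Plin1 and Plin5 by correlation. Members and lists were chosen with earlier results of these data known.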

Additional observations from a re-analysis of the deposited data

Results flagged for a closer look

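Each member was examined in each group of 4 or 5 libraries for a library that stood far from the others, and 19 of 110 such sets held one, where chance gives about 1 in 20. In iBAT these were Plin2 in GC_RT replicate 3 (2297 CPM), Cidec in GC_RT replicate 4 (829 CPM), Fitm1 in GC_RT replicate 3 (1.38 CPM) and Ctrl_CT replicate 4 (1.67 CPM), and Fitm2 in GC_RT replicate 2 (361 CPM). GC_CT replicate 2 of iBAT stood apart for Plin4 (319.8 CPM), Cidec (1279.8 CPM) and Bscl2 (323 CPM), being the highest of its group each time. In the adipocyte list that library had a mean of 10.67, the highest of the GC_CT group.

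In goWAT, GC_CT replicate 1 stood apart for Plin2 (1475 CPM), Plin3 (142 CPM), Plin5 (157 CPM) and Fitm2 (528 CPM), and GC_RT replicate 1 for Plin5 (94.8 CPM). These are the libraries that were high in brown adipocyte genes. Plin5 also stood apart in Ctrl_RT replicate 3 (26.4 CPM) and Ctrl_CT replicate 2 (43.2 CPM), and Fitm2 in Ctrl_CT replicate 1 (199 CPM), the lowest of its group. In scWAT these were Plin1 in Ctrl_CT replicate 2 (685 CPM) and Fitm1 in GC_RT replicate 2 (3.94 CPM, 209 counts) and GC_CT replicate 5 (0.486 CPM), where all other libraries of the GC_CT group were at 0.

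The effect of corticosterone on Plin1 in goWAT differed between 13 °C and 22 °C by 2.01 ± 0.33 on the log2 scale (edgeR adjusted p = 0.00521). The effect on Cidec at 22 °C differed between the depots (edgeR adjusted p = 0.0245).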

How the results depend on the processing

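The number of members called is compared here, with the main value in brackets. Leaving out 1 library gave 0 to 3 for GC_RT against Ctrl_RT in iBAT (1), 1 to 2 in goWAT (1) and scWAT (1), 0 to 1 for GC_CT against Ctrl_CT in iBAT (0), 0 to 3 for GC_CT against GC_RT in scWAT (2), 0 to 1 for iBAT (1) and goWAT (2) against scWAT, 3 to 6 for iBAT against goWAT (6) and 0 to 2 for the corticosterone effect between depots at 22 °C (1). In the other comparisons it did not change the number. For GC_RT against Ctrl_RT in iBAT, DESeq2 and limma with library weights gave 5 each. Only the compared groups in the fit gave 0, and leaving out muscle-rich or macrophage-rich libraries gave 2 and 0. For that comparison in goWAT (1), limma gave 2, as did leaving out GC_RT and GC_CT replicates 1 or GC_RT replicates 2 and 4, and in scWAT (1) size factors of DESeq2, DESeq2 itself and limma gave 2 and leaving out macrophage-rich libraries 0. For GC_CT against Ctrl_CT (0 in each depot), DESeq2 gave 1 in iBAT, limma 1 in iBAT, goWAT and scWAT, and only the compared groups in the fit 1 in scWAT. For Ctrl_CT against Ctrl_RT, limma gave 5 in iBAT (0) and 1 in scWAT (0). For GC_CT against GC_RT in scWAT (2), each of no filter, only the compared groups, and leaving out muscle-rich, macrophage-rich or keratin 18 libraries gave 0. The goWAT interaction (1) gave 0 without epididymis libraries. For iBAT against scWAT (1), DESeq2 gave 2, and for goWAT against scWAT (2) no filter gave 1 and limma 4. The corticosterone effect between depots gave 2 with DESeq2 and 3 with limma at 22 °C (1), and 1 with limma at 13 °C (0). The fold change of Cidec in iBAT Ctrl_CT against Ctrl_RT (-0.76) turned to 0.28 without Ctrl_RT replicates 1 and 2, an alternative chosen after seeing the data that leaves 1 library, Ctrl_RT replicate 3 (744 CPM of Cidec, against 1869 and 1938 in those left out). All values without the adipocyte-rich libraries rest on that 1 iBAT Ctrl_RT library, and those without keratin 18 libraries on 1 GC_CT library. The spread is that of the other groups, so these values do not test the calls. The causes were not tested. The replicate block, with the replicate number as a factor, gave 0 members for GC_CT against GC_RT in scWAT (2) and changed no other count of members. Numbers do not mark shared animals in the labels, and deviations of same-numbered libraries correlated above 0.1 in 4 of 27 pairs in goWAT, 7 of 24 in iBAT and 4 of 24 in scWAT. Between depots of one condition they did in 16 of 53 same-numbered pairs, against 22 of 202 pairs with different numbers, while the joint fit takes the 55 libraries as independent. Counts of all genes called moved more: for GC_RT against Ctrl_RT they ran from 26 to 954 (main 114) for iBAT, 655 to 2212 (1206) for goWAT and 636 to 2256 (1317) for scWAT over the alternatives other than leaving out 1 library, and for GC_CT against GC_RT in scWAT from 2 to 2844 (1555). Over all other reported values, which are fold changes of single genes, adjusted p and counts of all genes, repeats kept direction and call or stayed within 1.5 times in 1274 cases, lost the call in 69, gained it in 41 and moved further in 207. Groups of 3 to 5 libraries and a coefficient of biological variation of 50.5% in iBAT, 49.99% in goWAT and 47.8% in scWAT limit what can be called, so members not called are not shown to be unchanged. Depth was ample for all but Fitm1.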
